A study of Mus musculus with 12 samples.

Results

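The extracellular matrix is cut by the matrix metalloproteinases (Mmp genes) and the ADAMTS proteases (Adamts genes), and cutting is held back by the tissue inhibitors of metalloproteinases (Timp genes). These genes, with the ADAMTS-like genes (Adamtsl), were followed across cultures of mouse cochlear glial cells and the neuron-like cells made from them. Members were taken by symbol alone, as every row named Mmp, Adamts, Adamtsl or Timp followed by its number. The rule found 51 of the 55487 genes in the expression table, of which 23 were Mmp, 19 Adamts, 5 Adamtsl and 4 Timp genes. Of these, 42 reached at least 1 TPM (RNA abundance per transcript length, relative to the library total) in at least 3 of the 12 libraries and were tested, and 9 were not.

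Each of the 4 groups had 3 libraries, all from cochleae of postnatal day 4 mice on a mixed C57Bl6 and FVB/N background. Spheres were grown in a serum-free medium with EGF at 20 ng/ml, bFGF at 10 ng/ml, and IGF and heparan sulfate at 50 ng/ml each. SCDM cultures were plated spheres kept in DMEM/F12 with B27, N2, BDNF and NT3, the latter both at 50 ng/ml, and SCDM/FGF cultures received the same with bFGF at 100 ng/ml. FIBCL-induced neurons (FIBCL-iNs) were plated spheres kept in Neurobasal with B27, N2, GlutaMax, bFGF, Forskolin at 20 µM, ISX9 at 20 µM, I-BET at 1 µM, Chir99021 at 10 µM and LIF at 1000 U/ml. The labels list bFGF for this medium at both 50 and 100 ng/ml. The differentiated cultures were analysed at 14 days. Spheres came from the dissected modiolus of several mice of both sexes, and all values are of whole cultures, not of sorted cells. FIBCL differed from SCDM in base medium, growth factors and small molecules together, so these cannot be told apart. The labels call the libraries of a group biological replicates and say no more, so p-values measure the spread between these libraries. The columns of the FIBCL-iNs in the table carry the name FIBC, which the study also uses for the mixture without LIF, so the table by itself does not show that LIF was present.

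Collagenases such as Mmp13 open the triple helix of fibrillar collagen, gelatinases (Mmp2, Mmp9) digest denatured and basement membrane collagen, stromelysins (Mmp3, Mmp10) cut proteoglycans and fibronectin and activate other proenzymes, and membrane-type enzymes such as Mmp14 act at the cell surface. ADAMTS proteases trim proteoglycans or procollagens, while ADAMTS-like proteins share their outer domains but have no protease domain. Each TIMP binds metalloproteinases in a tight inhibitory complex, and TIMP3 also blocks several ADAM and ADAMTS enzymes. In nervous tissue these enzymes are known for remodelling the matrix around growing axons and Schwann cells.

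The Mmp family has a cluster of 10 genes on mouse chromosome 9, within 427.1 kb. In order along the chromosome they were Mmp13, Mmp12, Mmp1b, Mmp3, Mmp1a, Mmp10, Mmp8, Mmp27, Mmp20 and Mmp7. The cluster held Mmp3, which changed in all 6 comparisons below, and the bases in front of its genes shared a feature that the choice by symbol did not use. The letters TGANTCA, where N is any base, were taken as the binding sequence of the transcription factor AP-1 on either strand. They were found in the 250 bases before a RefSeq transcription start (GRCm38.p6) of 8 of the 10 cluster genes. For Mmp12 they stood before only the second of its listed starts, and for Mmp7 before only the first. The middle base was G or C in all but Mmp20, where the match was TGAATCA. Of all 51 genes, 36 matched the RefSeq table. The letters were found before 0 of the 26 matched genes outside the cluster and before 7.82% of the 27025 genes in the table. The genes without a match all lay outside the cluster and were not searched. Mmp2, Mmp9, Adamts4, Adamts5 and Adamts15 were among them. The cluster genes without these letters in the window were Mmp8 and Mmp27. The 4 cluster genes with the largest changes on adding bFGF follow with the matching letters in capitals, each read 5′ to 3′ and ending at the base before the start, from chr9:7445572-7445821 for Mmp3, chr9:7502092-7502341 for Mmp10, chr9:7272264-7272513 for Mmp13 and chr9:7463891-7464140 for Mmp1a, all on the plus strand.
Mmp3: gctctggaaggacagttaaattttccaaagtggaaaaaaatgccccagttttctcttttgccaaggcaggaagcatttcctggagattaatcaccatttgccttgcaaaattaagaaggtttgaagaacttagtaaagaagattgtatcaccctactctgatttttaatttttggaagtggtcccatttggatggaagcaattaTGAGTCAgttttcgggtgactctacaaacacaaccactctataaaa
Mmp10: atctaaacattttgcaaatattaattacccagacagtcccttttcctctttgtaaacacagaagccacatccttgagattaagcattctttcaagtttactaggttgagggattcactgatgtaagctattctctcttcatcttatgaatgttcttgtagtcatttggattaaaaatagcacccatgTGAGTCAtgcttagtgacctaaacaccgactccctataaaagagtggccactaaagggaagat
Mmp13: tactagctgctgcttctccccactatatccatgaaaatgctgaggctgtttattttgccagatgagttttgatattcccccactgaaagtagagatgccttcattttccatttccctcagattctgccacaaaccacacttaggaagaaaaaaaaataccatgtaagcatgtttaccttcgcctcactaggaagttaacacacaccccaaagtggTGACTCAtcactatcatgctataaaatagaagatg
Mmp1a: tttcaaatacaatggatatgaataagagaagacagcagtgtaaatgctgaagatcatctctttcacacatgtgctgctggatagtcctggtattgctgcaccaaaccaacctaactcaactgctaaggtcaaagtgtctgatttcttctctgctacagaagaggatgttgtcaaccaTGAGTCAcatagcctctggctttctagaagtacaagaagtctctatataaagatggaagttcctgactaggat
The match began 46 bases before the start of Mmp3, 63 before that of Mmp10, 35 before that of Mmp13 and 73 before that of Mmp1a. A match describes the letters only, and whether a factor is bound there was not measured. The cAMP response element, spelled TGACGTCA, was found before 0 of the 36 matched genes and before 1.77% of all genes in the RefSeq table. The TCF/LEF letters CTTTGAT were found before 1 of the 36, Mmp7, and before 3.72% of all genes.

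Libraries of a group correlated with each other at r between 0.983 and 0.985 across genes, on log2(scaled TPM + 1), and the table gives no read depth. Neuronal markers were higher in the FIBCL-iNs, where the 8 listed genes summed to 400 to 426 scaled TPM, than in the other groups, where they summed to 15.0 to 22.3. The 8 glial markers summed to 428 to 444 scaled TPM in spheres, 162 to 186 under SCDM, 133 to 164 under SCDM/FGF and 16.7 to 22.6 in FIBCL-iNs. Markers of other cell types were also present. The 10 macrophage markers summed to 546 to 677 scaled TPM in spheres, 4878 to 5327 under SCDM, 4931 to 5258 under SCDM/FGF and 186 to 219 in FIBCL-iNs. In the same order of groups, the 9 markers of mesenchyme and fibroblasts summed to 1115 to 1173, 2324 to 2421, 1064 to 1185 and 207 to 226 scaled TPM, the rise in SCDM being that of Postn, and the 6 chondrocyte markers to 668 to 721, 5061 to 5319, 141 to 214 and 28.4 to 30.4. Over the 9 mesenchymal markers the median log2 difference between SCDM and spheres was −0.35, and in FIBCL-iNs against SCDM 7 fell and 1, Prrx1, rose. Of all genes tested between FIBCL-iNs and SCDM, 9.98% fell and 7.89% rose. The 4 markers of smooth muscle and pericytes summed to 27.0 to 30.5, 94.4 to 124, 20.8 to 27.9 and 6.80 to 7.36 scaled TPM, the 5 osteoblast markers to 64.6 to 112, 22.4 to 35.0, 20.0 to 29.5 and 14.5 to 15.2, and the 4 endothelial markers to 40.3 or less. The part of these cells in the results below was not tested. In bulk RNA, fewer cells of a type and less RNA per cell cannot be told apart.

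Summed over each family, protease transcripts were lowest and inhibitor transcripts highest in the FIBCL-iNs. Levels are given as scaled TPM, the deposited TPM multiplied by 1 factor per library. The factors differed by group, at 1.20 to 1.31 in FIBCL-iNs, 0.840 to 0.874 in spheres and 0.934 to 1.02 in SCDM and SCDM/FGF. The Mmp genes summed to 3600 to 3752 scaled TPM in spheres, 1938 to 2063 under SCDM, 6561 to 7107 under SCDM/FGF and 869 to 904 in FIBCL-iNs. The Adamts genes summed to 193 to 213, 213 to 234, 342 to 418 and 58.4 to 66.1 scaled TPM in the same order, and the Timp genes to 1200 to 1237, 2175 to 2465, 2118 to 2250 and 3573 to 3763. The ranges of the FIBCL-iNs lay apart from those of every other group for all 3 families. In the deposited TPM without rescaling they were still apart, lowest for Mmp and Adamts and highest for Timp. There the Timp genes summed to 2720 to 3055 in FIBCL-iNs and to 2285 to 2608 in SCDM. The Adamts sums of spheres (220 to 251) and SCDM (226 to 250) overlapped without rescaling. As a share of the summed TPM of the 51 genes, which does not depend on how libraries are scaled, Timp transcripts made up 23.8% ± 0.226 (SD, n = 3) in spheres, 50.0% ± 0.931 under SCDM, 23.2% ± 1.30 under SCDM/FGF and 79.2% ± 0.244 in FIBCL-iNs. Mmp transcripts made up 71.3% ± 0.459, 43.3% ± 0.545, 72.4% ± 1.02 and 19.1% ± 0.0670.

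**Figure D1:**
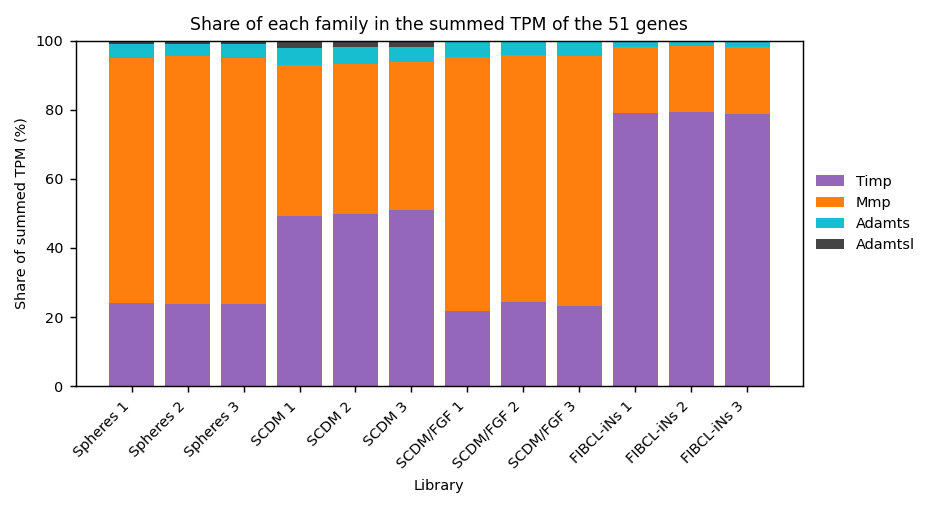
Stacked bars give, for each of the 12 libraries, the percentage of the summed TPM of the 51 genes that belonged to the Timp, Mmp, Adamts and Adamtsl families. The Timp share was 78.9% to 79.4% in the FIBCL-iNs and 21.9% to 51% in the 9 other libraries.

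The Mmp sum was carried by different genes in each group. Mmp3 made up 39.6% to 42% of it in spheres, 4.91% to 9.89% under SCDM, 74.4% to 75.4% under SCDM/FGF and 0.0710% to 0.119% in FIBCL-iNs. Mmp2 was the largest share in SCDM, at 64.4% to 70.3%, and in FIBCL-iNs, at 49.8% to 52.3%. Of the Timp sum, Timp2 made up 65.5% to 66.4% in spheres, and Timp1 made up 52.3% to 58.7% in SCDM, 70.1% to 72.6% in SCDM/FGF and 85.3% to 85.7% in FIBCL-iNs.

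**Figure D2:**
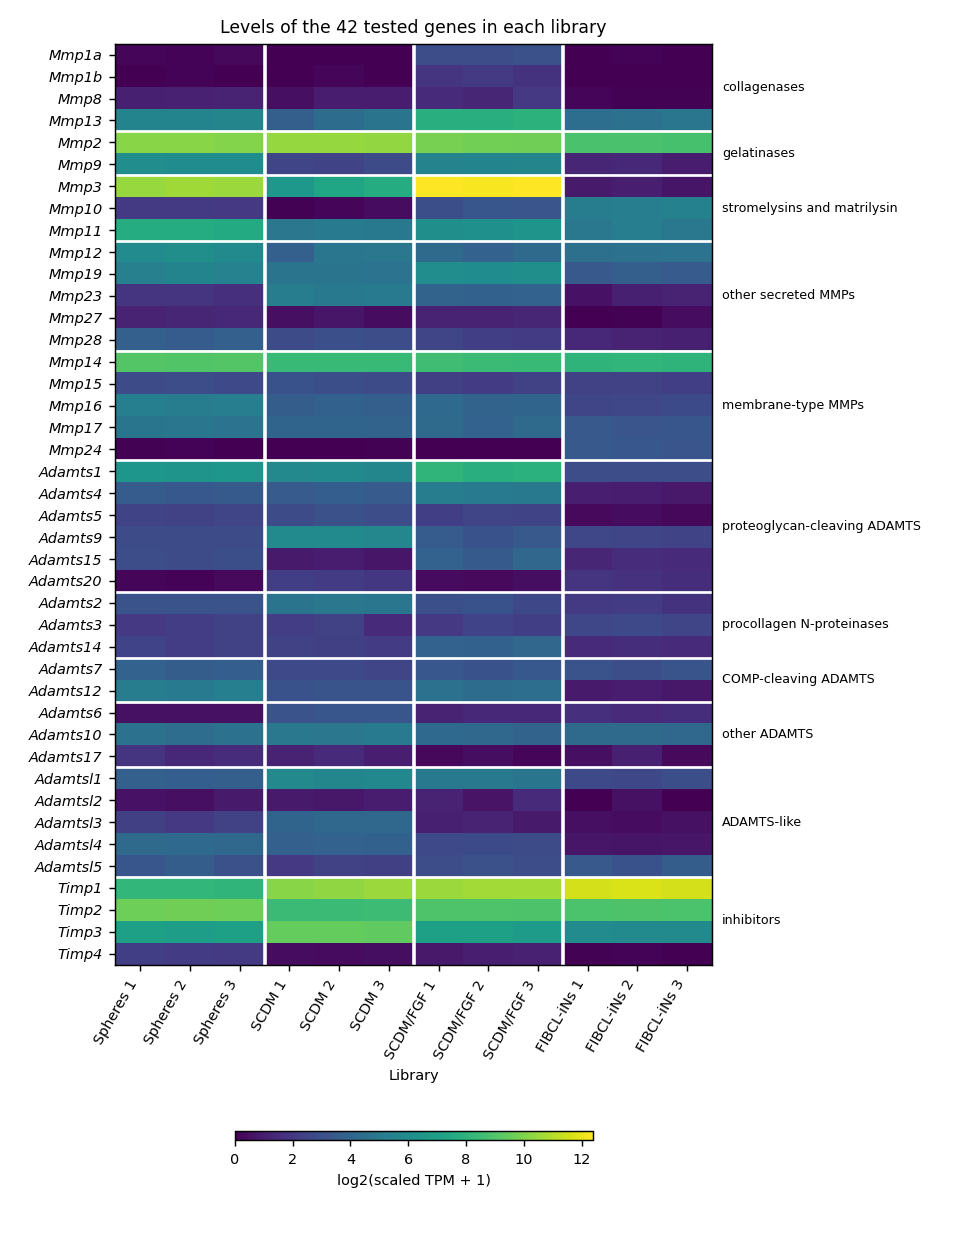
Each row is one of the 42 tested genes, grouped by role, and each column is a library. Colour gives log2(scaled TPM + 1), from 0 (dark) to above 12 (yellow), with Mmp3 in SCDM/FGF and Timp1 in FIBCL-iNs among the brightest rows.

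Differences were tested in limma on log2(scaled TPM + 1) with Benjamini-Hochberg adjustment over all 16016 genes tested, and changed genes were those that passed both an adjusted p of 0.05 and a size limit of 1.5 for the log2 difference in either direction. On this scale the change of genes at low levels is understated. The comparison of FIBCL with SCDM addressed which genes the small molecule medium altered relative to the standard differentiation medium. Of the 42 genes, 17 changed (40.5%, against 17.9% of all genes tested), with Mmp10 and Mmp24 higher and 15 lower. Over all genes, 7.89% were higher and 9.98% lower. The median difference of the 42 genes was −0.71 on the log2 scale, and that of all genes tested was −0.07. The libraries of the 2 groups did not overlap for 35 of the 42 genes and for 74.7% of all genes.

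Against SCDM/FGF, 18 of the 42 genes changed in the FIBCL-iNs (42.9%, against 16.8% of all genes), with the same 2 genes higher and 16 lower, where 6.97% of all genes were higher and 9.8% lower. Against spheres, 17 changed (40.5%, against 15.9% of all genes), with Mmp10, Mmp24, Timp1 and Adamts20 higher and 13 lower, where 7.14% of all genes were higher and 8.8% lower. The median difference was −0.99 against SCDM/FGF and −1.02 against spheres, with −0.05 and −0.06 over all genes. Groups did not overlap for 38 and 39 of the 42 genes, and for 72.9% and 75.0% of all genes. With the deposited TPM left unscaled, the median of all genes itself moved to −0.51 between FIBCL-iNs and spheres, and the split became 3 higher and 20 lower. These 3 comparisons use the same FIBCL libraries. The genes lower in FIBCL-iNs than in each of the other 3 groups were Mmp3, Adamts1, Adamts4, Adamts5, Adamts12 and Adamtsl4, and the genes higher than in each were Mmp10 and Mmp24.

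The media without small molecules also differed from spheres and from each other. Between SCDM and spheres, 18 of 42 genes changed (42.9%, against 6.18% of all genes), with 9 higher and 9 lower, where 3.76% of all genes were higher and 2.42% lower. Between SCDM/FGF and spheres, 9 changed (21.4%, against 6.04% of all genes), with 8 higher and only Mmp12 lower, where 4.12% and 1.92% of all genes were, and without rescaling the split was 6 and 4. Both comparisons share the sphere libraries. Adding bFGF to SCDM was the question of the last comparison, in which 15 genes changed (35.7%, against 4.85% of all genes), with 9 higher and 6 lower, where 2.88% and 1.97% of all genes were. Groups did not overlap for 34, 35 and 36 of the 42 genes in these 3 comparisons, and for 58.6%, 57.0% and 51.6% of all genes.

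In all, 31 of the 42 genes changed in at least 1 of the 6 comparisons, and Mmp3 changed in each. The 11 that changed in none were Mmp14, Mmp15, Mmp17, Mmp27, Adamts3, Adamts7, Adamts10, Adamts17, Adamtsl2, Adamtsl5 and Timp2. The lowest of the 4 group means fell in the FIBCL-iNs for 25 of the 42 genes, and the highest for 5. An adjusted p under 0.05 alone, with no limit on size, was passed by 71.7%, 70.7% and 71.6% of all genes in the comparisons of FIBCL with SCDM, SCDM/FGF and spheres, and by 50.3%, 50.4% and 43.1% in the other 3. Of the 42 genes, 8 were higher and 29 lower by this limit in FIBCL-iNs against SCDM, 6 and 30 against SCDM/FGF, and 5 and 32 against spheres. The counts were 12 and 20 in SCDM against spheres, 16 and 17 in SCDM/FGF against spheres, and 21 and 15 in SCDM/FGF against SCDM.

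**Figure D3:**
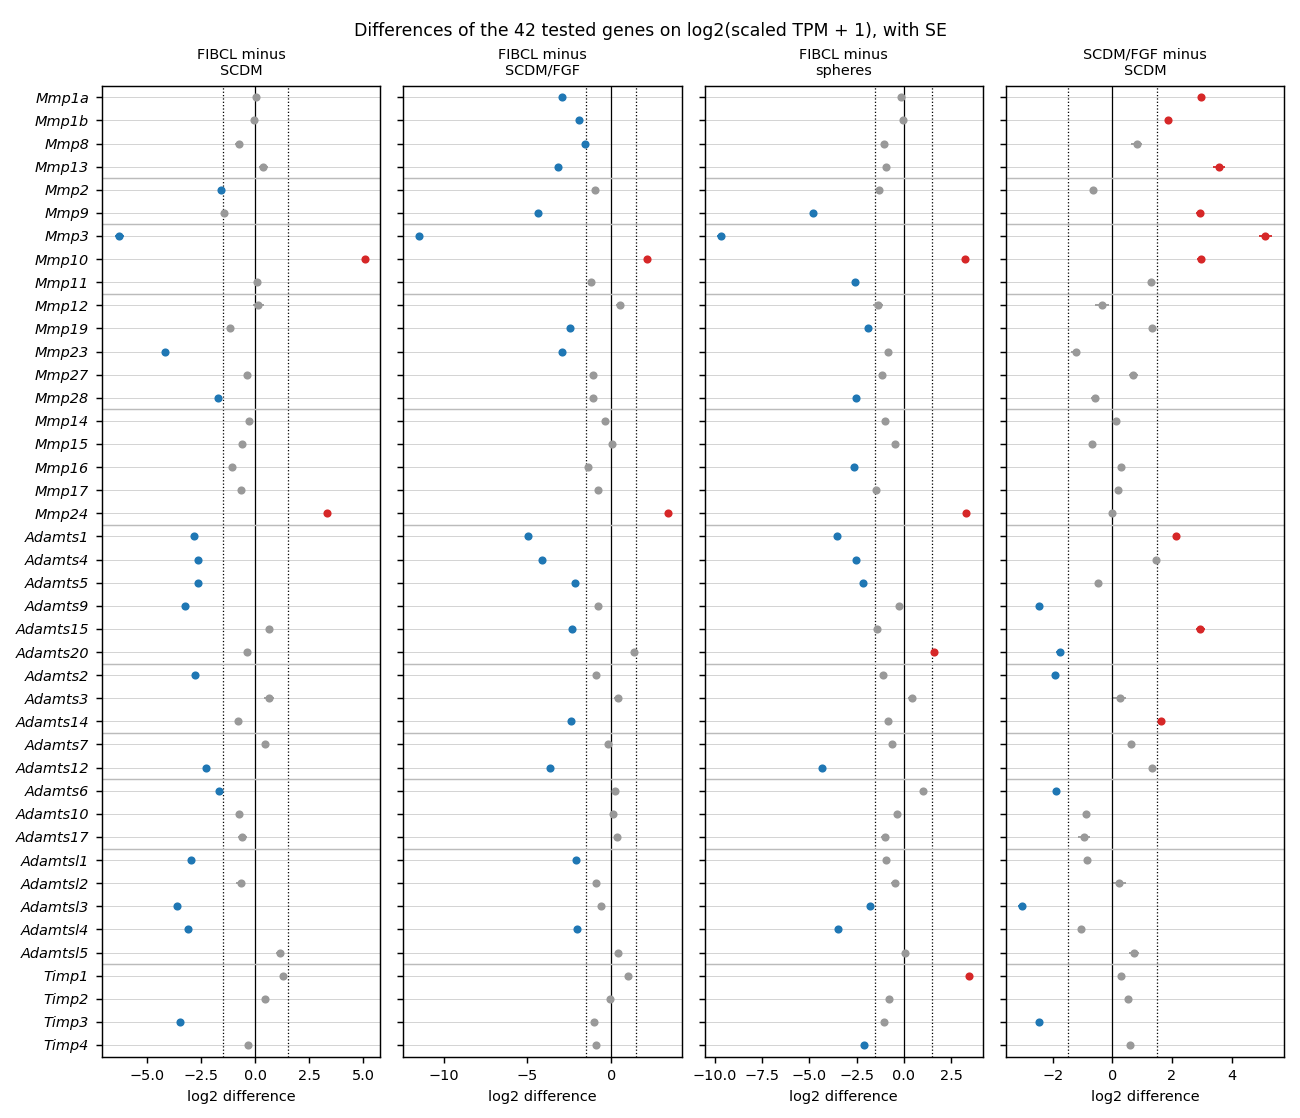
Points give the log2 difference of each of the 42 genes in 4 comparisons, with the SE of limma as bars, zero as a solid line and the size limit of 1.5 as dotted lines. Red points are genes counted as higher in the first group and blue points as lower, and the axes differ between panels, from −11.44 for Mmp3 against SCDM/FGF to 5.13 for Mmp3 between SCDM/FGF and SCDM.

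Among the stromelysins, Mmp3 (ENSMUSG00000043613, chr9:7445822-7455975, plus strand, GRCm38) had the largest log2 difference of the 42 genes in 4 of the 6 comparisons. It stood at 1437, 1575 and 1479 scaled TPM in the sphere libraries, 95.2, 158 and 204 under SCDM, 5312, 4878 and 5206 under SCDM/FGF, and 0.862, 1.07 and 0.618 in FIBCL-iNs. No library of a group overlapped another group. The difference between FIBCL-iNs and SCDM was −6.31 ± 0.21 (SE; limma adjusted p = 2.1e-10), and the mean in SCDM was 179 times that in FIBCL-iNs. Against SCDM/FGF the difference was −11.44 ± 0.21 and against spheres −9.67 ± 0.21. Between SCDM/FGF and SCDM it was 5.13 ± 0.21 (limma adjusted p = 5.3e-09), a ratio of 33.7 between the means.

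Mmp10, the second stromelysin, lies downstream of Mmp3 in the same cluster and moved the other way in the FIBCL-iNs. Its levels were 3.30, 3.32 and 3.17 scaled TPM in spheres, 0.0381, 0.131 and 0.331 under SCDM, 6.76, 9.00 and 8.45 under SCDM/FGF, and 36, 38.3 and 42 in FIBCL-iNs. The 4 groups were again fully apart. The log2 difference was 5.10 ± 0.12 against SCDM (limma adjusted p = 1.4e-11), 2.14 ± 0.12 against SCDM/FGF and 3.22 ± 0.12 against spheres. Mmp10 and Mmp3 share sequence, with 140 of the 1673 stretches of 50 bases in Mmp10 transcripts also found in Mmp3 (8.37%). A part of their reads could therefore be assigned to either gene. In spheres, SCDM and SCDM/FGF, the Mmp10 means of 3.26, 0.167 and 8.07 scaled TPM stood beside Mmp3 means of 1497, 152 and 5132. How much of the Mmp10 level in these groups came from Mmp3 reads was not tested. Mmp11, a stromelysin activated inside the secretory pathway, was highest in spheres and lower in both SCDM (−2.64 ± 0.09) and FIBCL-iNs (−2.56 ± 0.09).

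**Figure D4:**
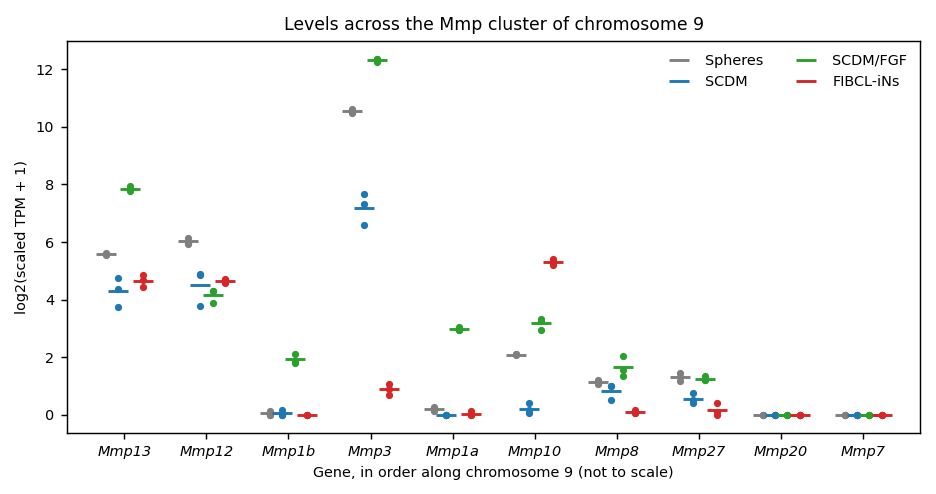
Points are libraries and dashes are group means of log2(scaled TPM + 1) for the 10 genes of the chromosome 9 cluster, in chromosomal order but not to scale. Mmp3 and Mmp13 stood highest in SCDM/FGF and Mmp10 in FIBCL-iNs, while Mmp20 and Mmp7 were listed at 0 in all 12 libraries.

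Collagenases were highest in SCDM/FGF. Mmp13, which cuts collagen II efficiently, stood at 46.3, 46.5 and 48.4 scaled TPM in spheres, 12.5, 19.5 and 25.8 under SCDM, 227, 218 and 244 under SCDM/FGF, and 20.9, 24.6 and 27.8 in FIBCL-iNs. The SCDM and FIBCL ranges overlapped, and the difference between them was 0.37 ± 0.19 (limma adjusted p = 0.11). SCDM/FGF was above all the others, by 3.56 ± 0.19 over SCDM on the log2 scale (limma adjusted p = 5.9e-08), a ratio of 11.9. The interstitial collagenases of the mouse followed at low levels. Mmp1a, which GENCODE annotates as a polymorphic pseudogene, was at 0.136, 0.105 and 0.218 scaled TPM in spheres, listed at 0 in every SCDM library, at 6.71, 6.69 and 7.31 in SCDM/FGF, and at 0, 0.0862 and 0 in FIBCL-iNs. Mmp1b was above 1 scaled TPM in SCDM/FGF alone, at 2.68, 3.27 and 2.46, at 0.105 in sphere library 2 and 0.112 in SCDM library 2, and listed at 0 in the other 7 libraries. Both were higher in SCDM/FGF than in SCDM (limma adjusted p = 6.2e-10 for Mmp1a and 9.4e-08 for Mmp1b) and lower in FIBCL-iNs than in SCDM/FGF. Of the stretches of 50 bases in Mmp1b transcripts, 11.8% also occur in Mmp1a, and Mmp1b shares 157 exonic bases with Mmp12 on the opposite strand. The neutrophil collagenase Mmp8 ranged from 1.52 to 3.15 scaled TPM in SCDM/FGF and fell by 1.55 ± 0.19 on the log2 scale in FIBCL-iNs against that group, a call that was lost without SCDM/FGF replicate 3 (−1.34).

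Of the 8 tested genes of the cluster, 5 rose and 0 fell between SCDM and SCDM/FGF. The median difference was 2.41 on the log2 scale, where 2.88% of all genes rose, 1.97% fell and the median was −0.02. Among the 5, Mmp10 shares sequence with Mmp3 and Mmp1b with Mmp1a, and whether these were separate changes was not tested. Between SCDM/FGF and FIBCL-iNs, 5 fell and 1 rose, with a median of −1.73, where 9.8% of all genes fell, 6.97% rose and the median was −0.05. The same SCDM library, replicate 1, was the lowest of its group for Mmp3, Mmp10, Mmp13, Mmp12, Mmp8 and Timp1. Without that library the difference between SCDM/FGF and SCDM was 4.83 for Mmp3, 2.88 for Mmp10 and 3.30 for Mmp13, and the calls stood. Of the 7 genes of AP-1 subunits, Fosl1 was singled out after its values were seen. It ranged from 39.4 to 41.0 scaled TPM in SCDM/FGF and from 2.36 to 8.11 in the other groups, and it rose by 3.31 ± 0.23 in SCDM/FGF against SCDM as the 1 of the 7 that changed. Jund, also chosen after its values were seen, was at 99.6 to 112 scaled TPM in SCDM and 44.3 to 47.6 in SCDM/FGF, a difference of −1.17 ± 0.05. In FIBCL-iNs Jund was at 255 to 262 scaled TPM. In SCDM/FGF against spheres, 1 of the 7 was higher and 2 were lower, where 4.12% and 1.92% of all genes were. The 7 summed to 1038 to 1058 scaled TPM in spheres, 418 to 435 in SCDM, 521 to 571 in SCDM/FGF and 599 to 611 in FIBCL-iNs. In FIBCL against SCDM/FGF, 1 of the 7 was higher and 1 lower, where 6.97% and 9.8% of all genes were. In FIBCL against SCDM, 0 of the 7 passed both limits in limma, although 6 passed the adjusted p of 0.05 alone. The part of AP-1 in the Mmp levels was not tested.

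The gelatinases differed from each other. Mmp2 was the steadier, at 1088 to 1145 scaled TPM in spheres, 1329 to 1366 under SCDM, 825 to 907 under SCDM/FGF and 436 to 456 in FIBCL-iNs, and it fell by 1.59 ± 0.04 on the log2 scale in FIBCL-iNs against SCDM. Mmp9, the inducible gelatinase of macrophages and osteoclasts, was at 65.6, 63.7 and 63.6 scaled TPM in spheres, 5.04, 4.88 and 6.19 under SCDM, 44.7, 47.6 and 49.1 under SCDM/FGF, and 1.52, 1.56 and 0.933 in FIBCL-iNs. Its 4 groups did not overlap. The log2 difference was −4.81 ± 0.11 between FIBCL-iNs and spheres (limma adjusted p = 1.4e-11), −3.36 ± 0.11 between SCDM and spheres, and 2.92 ± 0.11 between SCDM/FGF and SCDM. Between FIBCL-iNs and SCDM it was −1.45 ± 0.11, short of the size limit, which it passed without FIBCL replicate 1 (−1.51), FIBCL replicate 2 (−1.52) or SCDM replicate 2 (−1.51). The 10 macrophage markers all rose in SCDM against spheres, where Mmp9 fell and 3.76% of all genes rose. In FIBCL-iNs 9 of the 10 fell against SCDM and against SCDM/FGF and 6 against spheres, where 9.98%, 9.8% and 8.8% of all genes fell. Against spheres 1 of the 10, Cd68, rose, from 33.1 to 42.4 scaled TPM in spheres to 152 to 177 in FIBCL-iNs. Osteoclast markers summed to 393 to 430 scaled TPM in spheres, 239 to 240 under SCDM, 205 to 218 under SCDM/FGF and 54.8 to 62.1 in FIBCL-iNs, with Ctsk as most of the sum and the receptor gene Calcr listed at 0 in the first 3 groups. The part of either cell type in the level of Mmp9 was not tested.

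**Figure D5:**
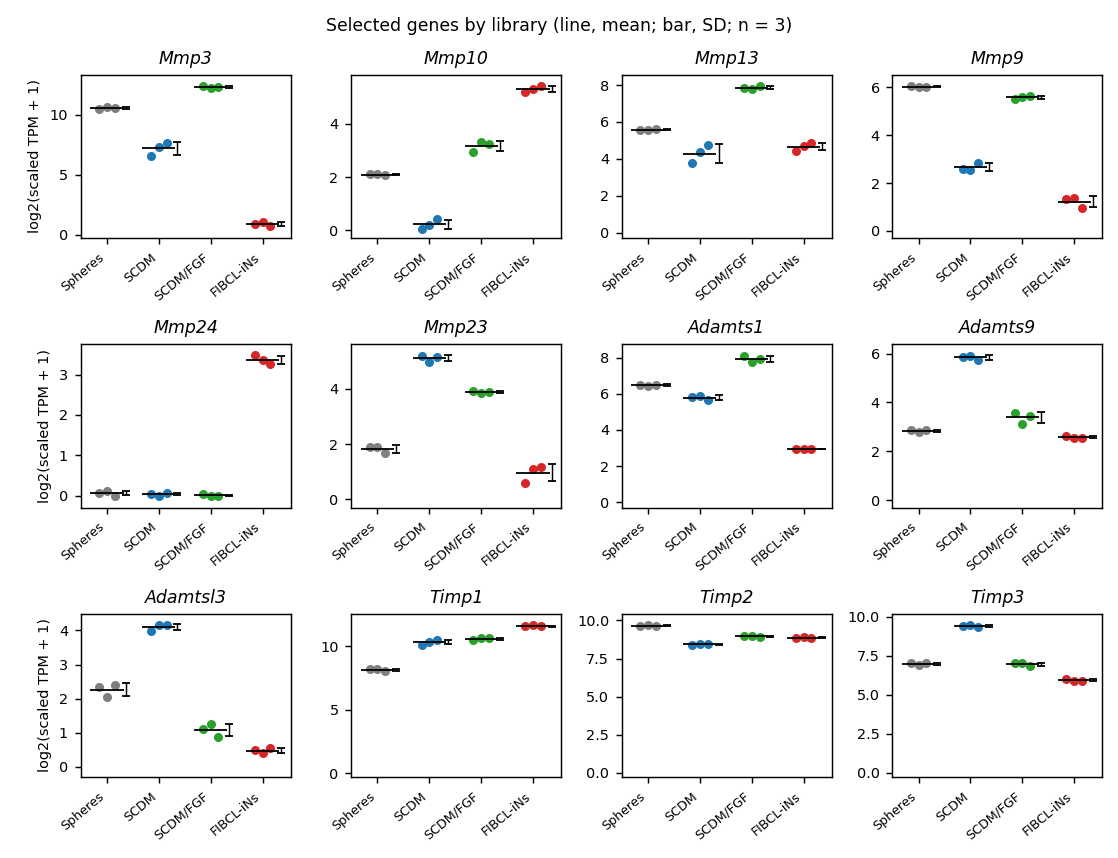
Each panel gives log2(scaled TPM + 1) of 1 gene in the 12 libraries, with points for libraries, a line for the mean and a bar for the SD of 3 libraries. The vertical axes differ, so levels are compared within a panel, as for Mmp24, which was near 0 in all but the FIBCL-iNs.

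The membrane-type enzymes held the other gene that was higher in FIBCL-iNs. Mmp24 (ENSMUSG00000027612, chr2:155775342-155818366, plus strand, GRCm38) encodes a membrane-type enzyme known from neurons. Its levels were 10.1, 9.20 and 8.62 scaled TPM in FIBCL-iNs, and 0.0787 or less in the 9 other libraries. The log2 difference was 3.33 ± 0.09 against SCDM (limma adjusted p = 5e-11), 3.36 ± 0.09 against SCDM/FGF and 3.30 ± 0.09 against spheres. Exons of Mmp24 share 637 bases with BC029722 on the opposite strand, and reads were aligned in orientation mode but the kit and the counting were not stated to keep strand, so whether their reads were told apart is unknown. Mmp14, the main cell surface collagenase, changed in 0 comparisons, with 517 to 538 scaled TPM in spheres, 318 to 337 under SCDM, 336 to 383 under SCDM/FGF and 262 to 284 in FIBCL-iNs. Mmp16, which also sits in the cell membrane, fell by 2.62 ± 0.08 on the log2 scale in FIBCL-iNs and by 1.53 ± 0.08 in SCDM, both against spheres, the latter short of the size limit without SCDM replicate 1 (−1.48). Mmp15, at 3.41 to 7.71 scaled TPM over the 12 libraries, and Mmp17, at 8.61 to 27.5, are further membrane-type enzymes and changed in 0 comparisons.

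Among the remaining Mmp genes, Mmp23 was highest in the SCDM cultures. It was at 2.71, 2.75 and 2.17 scaled TPM in spheres, 36, 30.7 and 34.9 under SCDM, 14.2, 13.3 and 13.9 under SCDM/FGF, and 0.526, 1.15 and 1.25 in FIBCL-iNs. These 4 ranges were apart. The log2 difference between FIBCL-iNs and SCDM was −4.16 ± 0.14 (limma adjusted p = 2.3e-10), a ratio of 34.8 between the means, and that between SCDM and spheres was 3.30 ± 0.14. Mmp23 was also called higher in SCDM/FGF than in spheres, and it was not called changed between SCDM/FGF and SCDM. Mmp12, the macrophage elastase, was highest in spheres at 60.6 to 69.0 scaled TPM and fell in both SCDM (−1.52 ± 0.24) and SCDM/FGF (−1.86 ± 0.24), where the macrophage markers were higher. The first of these calls was lost without SCDM replicate 1 (−1.16) or sphere replicate 2 (−1.46). Mmp19, an enzyme of basement membranes, and Mmp28, called epilysin, were lowest in FIBCL-iNs, at 10.1 to 12.5 and 1.12 to 1.64 scaled TPM. Mmp19 fell against SCDM/FGF (−2.48 ± 0.07) and spheres (−1.90 ± 0.07), and Mmp28 against SCDM (−1.71 ± 0.13) and spheres (−2.51 ± 0.13). Mmp27, next to Mmp8 in the cluster, stayed at 1.73 scaled TPM or less and changed in 0 comparisons.

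The ADAMTS proteases that cut aggrecan and versican were lower in FIBCL-iNs than in SCDM for 4 of the 6 tested, where 9.98% of all genes were. Adamts1, the most abundant, was at 90.5, 85.2 and 88.6 scaled TPM in spheres, 56.2, 57.9 and 49.5 under SCDM, 275, 214 and 242 under SCDM/FGF, and 6.59, 6.70 and 6.67 in FIBCL-iNs. Adamts4, the first enzyme named aggrecanase, was at 11, 9.77 and 10.4 in spheres, 10.7, 12.2 and 10.8 under SCDM, 36.3, 31.8 and 30.6 under SCDM/FGF, and 1.04, 0.973 and 0.828 in FIBCL-iNs. FIBCL libraries were below all others for both genes. Adamts1 differed by −2.86 ± 0.08 from SCDM on the log2 scale (limma adjusted p = 7.1e-11), −4.99 ± 0.08 from SCDM/FGF and −3.54 ± 0.08 from spheres, and Adamts4 by −2.65 ± 0.09, −4.12 ± 0.09 and −2.55 ± 0.09. Adamts5, the other main aggrecanase, was at 3.96 to 7.49 scaled TPM outside the FIBCL-iNs and at 0.197 to 0.308 within them, a log2 difference of −2.64 ± 0.11 from SCDM.

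Adamts9, a versican-cleaving protease, was a gene of SCDM. Its libraries held 6.38, 5.99 and 6.31 scaled TPM in spheres, 57.6, 59.4 and 52.6 under SCDM, 11, 7.80 and 9.85 under SCDM/FGF, and 5.12, 4.91 and 4.82 in FIBCL-iNs. The SCDM libraries stood far above the rest. The log2 difference was 2.99 ± 0.10 between SCDM and spheres (limma adjusted p = 1.4e-09), −2.46 ± 0.10 between SCDM/FGF and SCDM, and −3.27 ± 0.10 between FIBCL-iNs and SCDM. Adamts9 shares 1381 exonic bases with A730049H05Rik on the opposite strand. Adamts15 and Adamts20 were opposite to each other in SCDM. Adamts15 ranged from 0.690 to 0.934 scaled TPM there and from 10.4 to 15.8 in SCDM/FGF, while Adamts20 ranged from 2.96 to 3.96 in SCDM and from 0.262 to 0.386 in SCDM/FGF. In FIBCL-iNs Adamts20 stood at 2.05 to 2.81, which was 1.57 ± 0.12 above spheres on the log2 scale, and 1.49, short of the size limit, without FIBCL replicate 1.

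Of the proteases that remove the N-terminal propeptide of procollagens, Adamts2 was at 7.92, 7.86 and 7.94 scaled TPM in spheres, 26.5, 29.3 and 28.1 under SCDM, 7.24, 7.60 and 5.43 under SCDM/FGF, and 3.33, 3.62 and 2.56 in FIBCL-iNs. It fell by 2.80 ± 0.12 on the log2 scale from SCDM to FIBCL-iNs (limma adjusted p = 2e-09) and rose by 1.70 ± 0.12 from spheres to SCDM. Adamts14 was highest in SCDM/FGF, at 13.4 to 15.9 scaled TPM, and was 1.63 ± 0.09 above SCDM on the log2 scale. Adamts3 changed in 0 comparisons and ranged from 1.74 to 5.65 scaled TPM. Adamts12, which cuts cartilage oligomeric matrix protein, was at 35.7, 31.7 and 39.0 in spheres, 7.60, 8.28 and 8.30 under SCDM, 24.6, 20.0 and 21.1 under SCDM/FGF, and 0.838, 0.936 and 0.749 in FIBCL-iNs. No 2 groups overlapped, and the log2 difference from spheres was −4.30 ± 0.10 in FIBCL-iNs (limma adjusted p = 1.1e-11) and −2.01 ± 0.10 in SCDM. Adamts6 was at 0.491, 0.472 and 0.454 in spheres, 8.03, 8.86 and 8.77 under SCDM, 1.37, 1.67 and 1.63 under SCDM/FGF, and 2.13, 1.79 and 2.08 in FIBCL-iNs. It rose by 2.70 ± 0.09 on the log2 scale in SCDM against spheres (limma adjusted p = 1.5e-09) and fell by 1.90 ± 0.09 in SCDM/FGF against SCDM. Adamts7, at 5.10 to 13.8 scaled TPM, Adamts10, at 14.3 to 32.1, and Adamts17, at 0.112 to 2.77, changed in 0 comparisons.

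The ADAMTS-like genes, whose products bind matrix without cutting it, were lower in FIBCL-iNs against SCDM for 3 of 5, where 9.98% of all genes were, with a median difference of −2.96 on the log2 scale. Against SCDM/FGF and against spheres 2 of 5 were lower, where 9.8% and 8.8% of all genes were, with medians of −0.91 and −0.92. Adamtsl1 was at 12.7, 12.0 and 12.3 scaled TPM in spheres, 55.6, 51 and 54.6 under SCDM, 31.5, 30.8 and 26.6 under SCDM/FGF, and 5.71, 5.52 and 6.91 in FIBCL-iNs. Adamtsl3 was at 4.04, 3.11 and 4.33 in spheres, 14.9, 16.9 and 16.8 under SCDM, 1.15, 1.38 and 0.844 under SCDM/FGF, and 0.407, 0.320 and 0.460 in FIBCL-iNs. Both were highest in SCDM, with no overlap of SCDM with any group. Adamtsl4, known for anchoring fibrillin in the eye, was at 18.4, 17.5 and 16.7 in spheres, 13.1, 13.6 and 13.3 under SCDM, 5.60, 5.93 and 5.99 under SCDM/FGF, and 0.694, 0.653 and 0.683 in FIBCL-iNs. Against SCDM, the log2 difference in FIBCL-iNs was −2.96 ± 0.08 for Adamtsl1, −3.62 ± 0.13 for Adamtsl3 and −3.09 ± 0.07 for Adamtsl4 (limma adjusted p = 6.5e-11, 3.3e-10 and 9.1e-12). Adamtsl2, at 1.74 scaled TPM or less, and Adamtsl5, at 3.20 to 11.6, changed in 0 comparisons.

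Each inhibitor had its own pattern. Timp1 (ENSMUSG00000001131, chrX:20870166-20874735, plus strand, GRCm38), the inducible inhibitor, was at 293, 295 and 270 scaled TPM in spheres, 1138, 1298 and 1447 under SCDM, 1484, 1624 and 1602 under SCDM/FGF, and 3084, 3225 and 3047 in FIBCL-iNs. The groups did not overlap. It rose from spheres by 2.17 ± 0.08 under SCDM, 2.45 ± 0.08 under SCDM/FGF and 3.44 ± 0.08 in FIBCL-iNs on the log2 scale (limma adjusted p = 2.1e-09, 8.4e-10 and 1.2e-11), and the ratio of FIBCL-iNs to spheres was 10.9. Against SCDM it stood 1.27 ± 0.08 higher in FIBCL-iNs, which passed the adjusted p but not the size limit.

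Timp3 (ENSMUSG00000020044, chr10:86300372-86349506, plus strand, GRCm38), which stays bound to the matrix, was highest in SCDM. It was at 128, 120 and 130 scaled TPM in spheres, 695, 703 and 663 under SCDM, 128, 129 and 113 under SCDM/FGF, and 62.6, 58.8 and 58.6 in FIBCL-iNs. Spheres and SCDM/FGF overlapped, and the other pairs did not. The log2 difference was −3.50 ± 0.06 between FIBCL-iNs and SCDM (limma adjusted p = 7.9e-13), −2.47 ± 0.06 between SCDM/FGF and SCDM, and 2.43 ± 0.06 between SCDM and spheres. Timp3 shares 1733 exonic bases with Syn3 on the opposite strand. All 4 tested chondrocyte markers fell in SCDM/FGF against SCDM, as Timp3 did, where 1.97% of all genes were lower. Against spheres, 3 of the 4 also fell in SCDM/FGF, where 1.92% of all genes were lower and Timp3 overlapped. The median difference of the 4 markers there was −3.33 on the log2 scale. Matn1 was listed at 0 in the FIBCL-iNs. The part of chondrocytes in the level of Timp3, Adamts9 or Adamtsl3 was not tested.

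Timp2, the constitutive inhibitor that also helps Mmp14 to activate Mmp2, was at 808, 819 and 797 scaled TPM in spheres, 342, 346 and 354 under SCDM, 505, 495 and 491 under SCDM/FGF, and 460, 478 and 468 in FIBCL-iNs. It did not reach the size limit in any comparison, and the largest difference was −1.22 ± 0.03 between SCDM and spheres. Timp4 was the least abundant, at 3.86, 3.42 and 3.34 in spheres, 0.314, 0.280 and 0.397 under SCDM, 0.794, 1.04 and 1.23 under SCDM/FGF, and 0.0598, 0.0739 and 0.0263 in FIBCL-iNs. Its groups did not overlap, and it fell from spheres by 1.77 ± 0.11 in SCDM and by 2.11 ± 0.11 in FIBCL-iNs on the log2 scale (limma adjusted p = 1.1e-07 and 8e-09). Exons of Timp4 and Syn2 overlap by 90 bases on opposite strands.

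The 9 genes that were not tested reached 1 TPM in fewer than 3 libraries. Mmp7 and Mmp20 were listed at 0 in all 12 libraries, and Mmp21, Mmp25, Adamts8, Adamts13, Adamts16 and Adamts19 stayed under 1 scaled TPM in every library. Adamts18 was uneven within the FIBCL-iNs, at 1.99, 0.0739 and 11.3 scaled TPM, and at 0.0560 or less in the other 9 libraries. No group level was therefore set for it.

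Other genes of matrix turnover were described from lists of activators and regulators, ADAM proteases and substrates. Of 21 tested activators and regulators, 4 rose and 7 fell in FIBCL-iNs against SCDM, with a median difference of −0.30. Over all genes in this comparison 7.89% rose and 9.98% fell with a median of −0.07, against which the counts of the lists that follow are also to be read. A2m, the broad protease trap alpha-2-macroglobulin, fell by 4.94 ± 0.10 on the log2 scale, and Pcolce, which enhances the cutting of procollagen C-propeptides, fell by 4.05 ± 0.04. Plau, the urokinase that makes plasmin, fell by 2.70 ± 0.14. Spock1, a testican proteoglycan, rose by 3.07 ± 0.17. In SCDM/FGF against SCDM, Plau rose by 2.85 ± 0.14.

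Of 10 tested ADAM proteases, which shed proteins from the cell surface, Adam22 rose by 2.53 ± 0.08 and Adam23 fell by 2.84 ± 0.10 in FIBCL-iNs against SCDM. Both of these bind the neuronal protein Lgi1 and lack protease activity. Of 18 tested substrates, 1 rose and 12 fell, with a median difference of −3.77 on the log2 scale. Col2a1 and Col3a1, the collagens of cartilage and of loose connective tissue, differed by −10.06 ± 0.25 and −9.09 ± 0.16, Eln, elastin, by −8.97 ± 0.33, Col1a2 by −8.53 ± 0.07 and the proteoglycan gene Bgn by −7.21 ± 0.07. Acan, the substrate that names the aggrecanases, was singled out after its values were seen. It was at 50.0 to 52.9 scaled TPM in SCDM and at 0.685 or less in SCDM/FGF. Of the 6 tested proteoglycan-cleaving ADAMTS genes, 2 (Adamts1, Adamts15) were higher and 2 (Adamts9, Adamts20) lower in SCDM/FGF against SCDM. Over all genes in that comparison, 2.88% were higher and 1.97% lower.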

How the data were processed

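RNA was sequenced from 12 libraries as poly(A)-selected TruSeq libraries with paired reads. The authors deposited 1 table of TPM with 55487 genes, made with TopHat and RSEM, and the submitters' processing notes also name Cufflinks. The study's methods name an orientation mode for the TopHat alignment. The genome build, versions and use of strand in the library kit and in counting are not given in the sources used here. TPM keeps no read depth, so the depth of each library and its counting error are unknown.

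From that table, genes were tested where 3 or more libraries reached 1 TPM, which left 16016. Libraries were scaled by a mean log2 ratio trimmed by 30%, over the 8434 genes at 5 TPM or more in every library. Values of log2(scaled TPM + 1) were fitted in limma 3.58.1 (R 4.3.3) with 1 model of the 4 groups and a mean-variance trend, with Benjamini-Hochberg adjustment within each of the 6 comparisons. This test was tried on simulated data first. The members and all lists were chosen with earlier results of these data known. Named genes followed a rule: the members given by library were the Timp genes and those with the largest called differences (12 for FIBCL against SCDM, 3 against SCDM/FGF, 5 in each other comparison), and other genes named were up to 5 per list with the largest differences. One gene of a list is not reported here. Coordinates are from GENCODE M21 (GRCm38), and exon overlaps and shared sequence were computed from it. Promoter letters were read from RefSeq on both strands. The alternatives changed the pseudocount, filter, scaling, thresholds, replicate block and libraries left out. Python 3.11.15, pandas 2.3.3, numpy 2.4.6 and matplotlib 3.10.9 were used.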

Additional observations from a re-analysis of the deposited data

Results flagged for a closer look

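Of the 15 genes that changed between SCDM/FGF and SCDM in limma, a comparison in which the shared sphere libraries cancel, 4 also differed from spheres in opposite directions in the media, each by at least 1 on the log2 scale at a limma adjusted p under 0.05. The difference on the log2 scale was 5.13 for Mmp3, 3.56 for Mmp13 and 2.96 for Mmp10, all higher with bFGF, and −3.02 for Adamtsl3, lower with bFGF. Mmp3 lay below the sphere level in every SCDM library and above it in every SCDM/FGF library, and Mmp10 and Mmp13 did the same. Mmp10 shares sequence with Mmp3, and whether its pattern is separate from that of Mmp3 was not tested. Adamtsl3 lay above the sphere level in every SCDM library and below it in every SCDM/FGF library.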

How the results depend on the processing

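Each of the 12 counts of changed genes was taken again under each alternative. Of the values so obtained, 163 stayed within 1.5 times the reported count and 17 did not. The differences of the Timp genes and the largest called differences of each comparison were also taken under each alternative. Of these values, 737 kept their direction and call, 3 passed both limits only under the alternative and 1 reversed. Other calls did not enter this tally, and some of them were lost or gained with a library left out. With an adjusted p of 0.05 and no size limit, 8 genes were higher and 29 lower in FIBCL-iNs against SCDM, 6 and 30 against SCDM/FGF, and 32 were lower against spheres. By the same limit 20 were lower in SCDM against spheres, 16 higher and 17 lower in SCDM/FGF against spheres, and 21 higher and 15 lower in SCDM/FGF against SCDM. A size limit of 1 gave 4 higher in FIBCL-iNs against SCDM, 21 lower against spheres, and 8 lower in SCDM/FGF against spheres. Without rescaling, 20 were lower in FIBCL-iNs and 4 in SCDM/FGF, both against spheres, and Timp3 differed by −1.60 between FIBCL-iNs and spheres, past the size limit. A pseudocount of 0.1 gave 6 lower in SCDM/FGF against spheres, and Timp4 then differed by −2.86 between FIBCL-iNs and SCDM/FGF and by −1.72 between SCDM/FGF and spheres. Lower genes in SCDM/FGF against spheres numbered 1 to 2 with a library left out, with 2 without SCDM/FGF replicate 1. Timp3 in SCDM/FGF against spheres ranged from −0.069 to 0.027 with a library left out, and turned positive without SCDM/FGF replicate 3 (limma adjusted p = 0.693). Against spheres, the calls of Adamts14 (1.48 without SCDM/FGF replicate 3, 1.49 without sphere replicate 2) and Adamts4 (1.50 without SCDM/FGF replicate 1, just short of the limit) in SCDM/FGF were also lost. The cause of these shifts was not tested. A replicate block left all 12 counts as reported (2 and 15, 2 and 16, 4 and 13, 9 and 9, 8 and 1, 9 and 6, higher and lower in the order of the report). Deviations of same-numbered libraries correlated at −0.121 to 0.098, with 0 of 18 pairs over 0.1, so the numbers gave no sign of pairing. Depth is unknown, so the precision of the genes near 0 TPM is too.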
